A study of Mus musculus with 9 samples.

Results

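The comparison described here is removal of the ovaries at postnatal day 21 against a sham operation at the same age, read in the RNA of kidney proximal tubule cells from female C57BL/6 mice. Genes were taken where FPKM, mapped fragments scaled for transcript length and library size, reached at least 1 in at least 3 of the 6 female libraries, which left 12682 of the 52405 entries in the table. The ovariectomized group (D21-ovx) and the sham group (D21-s) had 3 libraries each, called biological replicates, and 3 libraries of sham-operated adult males (M) were part of the same series. All mice were C57BL/6 bought from Japan SLC. The labels state no age at collection in words, codes in the column names were not interpreted, and estrous stage, hormone levels and any pooling of animals were not known here. Kidney cortex was dissociated, and cells that bound an antibody to prominin-1 were retained on a magnetic column, so the sample is an enriched cell fraction and not a pure cell type.

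The proximal tubule is the first segment after the glomerulus. It reclaims most of the filtered glucose, amino acids, phosphate and bicarbonate, secretes organic anions and cations, makes glucose and ammonia, and conjugates drugs and steroids. In mice many of its transporter and detoxification genes are known to differ between the sexes, and androgens, estrogens, prolactin and growth hormone are all known to act on kidney gene expression. Ovariectomy removes the main source of circulating estradiol and progesterone.

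Of the 12682 genes, 1 passed the test, and it was lower after ovariectomy. This was Pllp, the gene of plasmolipin, a membrane proteolipid of myelin and of epithelial cells, which fell 2.42-fold. The limma test called no gene higher, which is a background of 0% of the genes tested, and 0.00789% were called lower. At an unadjusted p under 0.05 there were 444 genes with higher levels (3.5% of those tested) and 357 with lower levels (2.82%). The 3 libraries of one group did not overlap the 3 of the other in 870 genes with higher levels (6.86%) and 777 with lower levels (6.13%). Every other gene named below therefore failed the adjustment over all genes, and its values are given as measurements only. The genes with the next smallest p-values encode organic anion transporters, acyl-CoA and glucuronide conjugating enzymes, serine protease inhibitors, ferritin light chain and sulfur transferases.

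The upstream sequences of 5 of these genes are shown because they are the called gene and 2 pairs of related neighbours among the 24 genes with the smallest p-values. They are the bases before the RefSeq start of each gene on build GRCm38.p6, read 5′ to 3′ on the gene's own strand, which is the minus strand for all 5. Capitals mark matches to the motifs named below.
Pllp, chr8:94696279-94696492: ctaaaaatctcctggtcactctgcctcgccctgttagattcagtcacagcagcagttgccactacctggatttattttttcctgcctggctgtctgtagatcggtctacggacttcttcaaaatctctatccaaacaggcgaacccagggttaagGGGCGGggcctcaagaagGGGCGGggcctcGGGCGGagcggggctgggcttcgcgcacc
Slc22a19, chr19:7711311-7711560: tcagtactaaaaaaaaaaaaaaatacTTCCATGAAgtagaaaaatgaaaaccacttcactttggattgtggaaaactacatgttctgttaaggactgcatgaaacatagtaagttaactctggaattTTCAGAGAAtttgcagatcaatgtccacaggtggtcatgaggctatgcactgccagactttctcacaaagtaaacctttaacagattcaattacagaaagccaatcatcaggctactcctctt
Slc22a26, chr19:7802668-7802917: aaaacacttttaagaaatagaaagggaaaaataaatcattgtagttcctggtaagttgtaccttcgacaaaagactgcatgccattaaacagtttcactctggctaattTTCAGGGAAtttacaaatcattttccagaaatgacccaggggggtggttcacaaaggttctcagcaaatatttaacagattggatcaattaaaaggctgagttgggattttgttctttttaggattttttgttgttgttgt
Serpina1a, chr12:103863620-103863869: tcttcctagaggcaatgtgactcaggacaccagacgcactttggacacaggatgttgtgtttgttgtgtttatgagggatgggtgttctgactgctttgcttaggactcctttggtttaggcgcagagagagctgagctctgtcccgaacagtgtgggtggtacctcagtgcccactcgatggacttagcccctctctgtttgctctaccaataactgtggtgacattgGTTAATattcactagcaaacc
Serpina1d, chr12:103773634-103773883: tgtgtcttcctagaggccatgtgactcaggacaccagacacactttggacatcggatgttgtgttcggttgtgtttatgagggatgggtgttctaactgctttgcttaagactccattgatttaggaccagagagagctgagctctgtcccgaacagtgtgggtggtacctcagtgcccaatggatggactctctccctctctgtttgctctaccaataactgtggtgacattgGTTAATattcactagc
In Pllp the capitals are 3 copies of the GC box GGGCGG, a motif that 59.8% of the 9419 tested genes with a RefSeq promoter hold in the 250 bases before the start. In Slc22a19 and Slc22a26 they are 2 and 1 matches to TTCNNNGAA, the palindrome that STAT5 binds, which 5.64% of promoters hold. In both Serpina1 genes they are GTTAAT, part of the motif of the liver and kidney factor HNF1, which 4.23% of promoters hold. All motifs were searched on both strands, and they were chosen with the genes and sequences known. The full estrogen response element, GGTCA and TGACC with 3 bases between them, was found in 0 of the 16 promoters available for those 24 genes and in 0 of the 9419. The nuclear receptor core AGGTCA was in 2 of the 16, those of Bhmt and Gjb2, and in 10.6% of promoters. GTTAAT was in 4 of the 16, also those of Gsta3 and Ugt1a10, the GC box in 4 and TTCNNNGAA in 2. The Serpina1a and Serpina1d windows were 89.4% identical in a global alignment and those of Slc22a19 and Slc22a26 52.2%. A match is a description of letters, and no binding was measured here.

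Pllp (ENSMUSG00000031775, chromosome 8, 94674894 to 94696278, minus strand, GENCODE M21 on GRCm38) was at 40.54, 38.85 and 43.62 FPKM in the D21-s libraries and at 17.20, 16.51 and 17.08 FPKM in the D21-ovx libraries. The groups were far apart relative to their spread, at 41.0 ± 2.42 FPKM (SD, n = 3) and 16.9 ± 0.369 FPKM. The log2 fold change, on the log2(FPKM + 1) scale used throughout, was -1.23 with a standard error of 0.12 (limma adjusted p = 0.0390). Over the other settings tried the adjusted p ranged from 0.00224 to 0.283 while the log2 fold change stayed between -1.27 and -1.07. The call was lost without D21-s library 1 (0.283) or 3 (0.186), without D21-ovx library 1 (0.152), 2 (0.192) or 3 (0.197), and without male library 3 (0.0696). It was also lost without the filter on low values (0.0716) and after quantile normalization (0.0557). With the replicate number as a block over all 9 libraries, males included, the limma adjusted p was 0.0526. It was 0.0106 when that block was fitted to the female libraries alone. Male libraries held 37.63, 25.51 and 32.86 FPKM, below every sham female and above every ovariectomized female. In a bulk fraction, fewer cells that express a gene and less of its RNA per cell cannot be told apart, for this gene and for all others here.

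**Figure D1:**
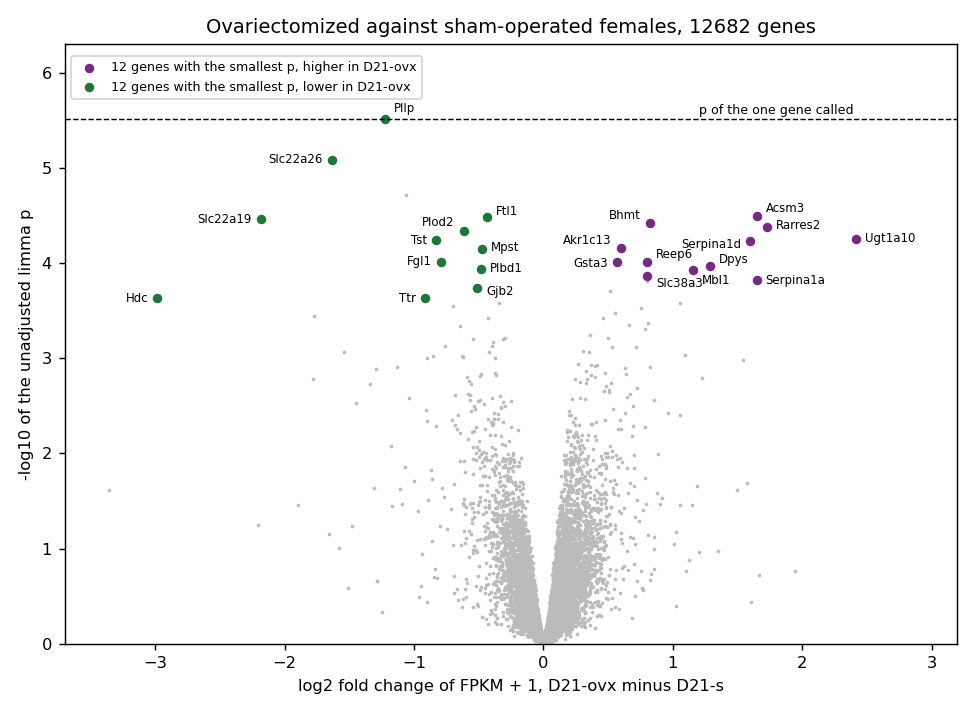
Log2 fold change of FPKM + 1 (D21-ovx minus D21-s, x axis) against -log10 of the unadjusted limma p (y axis) for 12682 genes; coloured points are the 12 genes with the smallest p in each direction and the dashed line is the p of Pllp. Pllp is the only gene on the line, and the other 23 coloured genes sit below it with log2 fold changes from -2.98 for Hdc to 2.42 for Ugt1a10.

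Organic anion transporter genes held some of the largest differences towards lower levels. Slc22a26 (chromosome 19, 7781041 to 7802667) was at 3.99, 3.65 and 5.07 FPKM in sham females and 0.42, 0.95 and 0.70 FPKM after ovariectomy (log2 fold change -1.63, limma adjusted p = 0.0523). It passed the filter only through the sham libraries, so it could only be found lower, and its p is no support for that direction. Slc22a19 (chromosome 19, 7673061 to 7711310), which encodes an exchanger of organic anions and steroid sulfates, was at 19.76, 13.56 and 18.29 FPKM in sham females and 5.31, 2.98 and 1.48 FPKM after ovariectomy (-2.18, adjusted p = 0.0620). The groups did not overlap in Slc22a19, while in Slc22a26 that separation follows from how the gene passed the filter. The means of Slc22a26 and Slc22a19 were 6.14-fold and 5.28-fold lower after ovariectomy. Males held 0.490 ± 0.269 and 0.580 ± 0.139 FPKM of these genes, so both are low in males, and D21-ovx was close to the male level for Slc22a26 and above it for Slc22a19.

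The Slc22a genes that lie beside them on chromosome 19, named after their values were seen, did not all have the same direction. Slc22a27 was at 1.25 ± 0.160 FPKM in sham females and 0.463 ± 0.0577 FPKM in ovariectomized females (-0.62), which also passed the filter only through the sham libraries, and Slc22a28 at 17.0 ± 1.19 and 13.04 ± 2.69 FPKM (-0.37, unadjusted p = 0.0168 by limma). Slc22a29 was at 37.2 ± 4.02 and 39.5 ± 5.18 FPKM (0.08) and Slc22a30 at 4.56 ± 0.550 and 4.22 ± 0.796 FPKM (-0.10), with libraries that overlapped. Slc22a28 and Slc22a30 are male-high genes in these libraries, at 63.7 and 44.2 FPKM in males. Slc22a7, an organic anion transporter gene on another chromosome, was at 10.88, 5.32 and 8.22 FPKM in sham females and 3.71, 1.63 and 0.38 FPKM after ovariectomy (-1.78, limma adjusted p = 0.252). Of 34 tested genes for organic anion, cation and drug transport, 2 had higher and 5 lower levels at an unadjusted p under 0.05, where 3.5% and 2.82% of all genes did, and the median log2 fold change was -0.01, against 0.01 over all genes. Without Slc22a26 and Slc22a27 the counts were 2 and 3 of 32. The 5 are the Slc22a genes above except Slc22a29 and Slc22a30, and the 2 were Slc22a4, a carnitine and ergothioneine transporter gene, at 32.6 ± 2.87 and 40.95 ± 2.6 FPKM, and Abcc4, an efflux pump gene, at 49.9 ± 7.11 and 67.8 ± 1.40 FPKM.

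**Figure D2:**
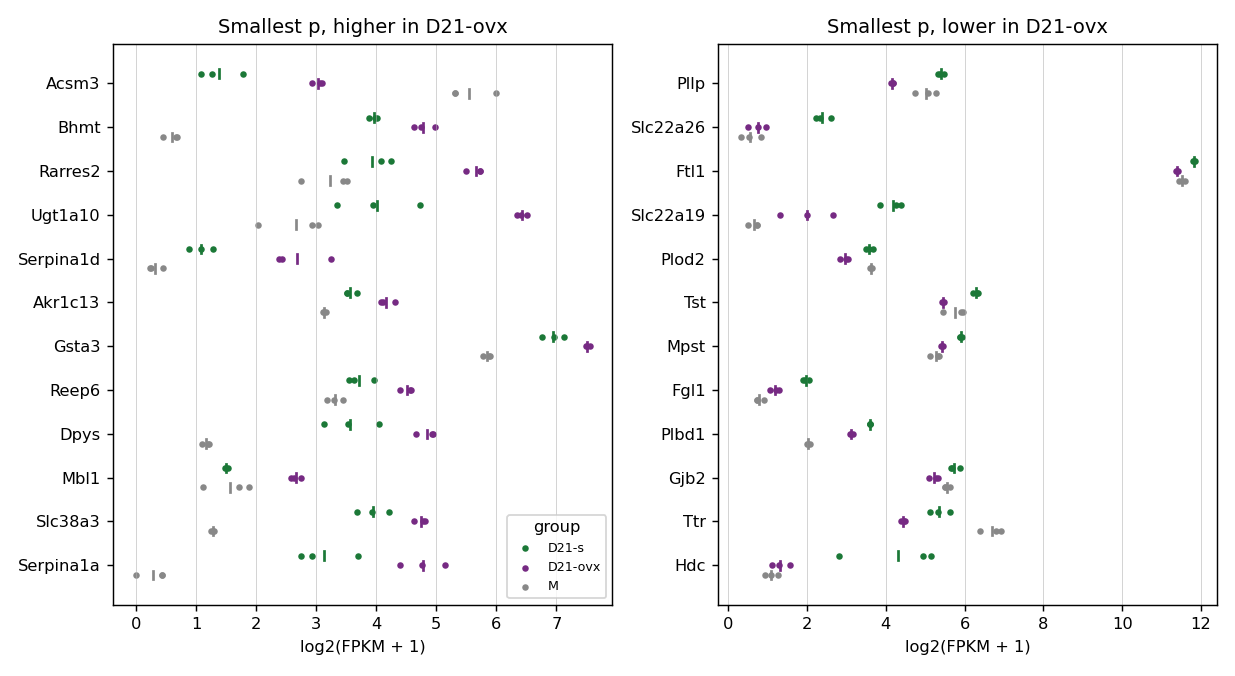
Levels as log2(FPKM + 1) (x axis) of the 12 genes with the smallest p in each direction, one point per library and a bar at the group mean, for D21-s (green), D21-ovx (purple) and M (grey). The D21-s and D21-ovx points do not overlap in any of the 24 genes, a condition of the rule that chose them, while the male points lie on either side.

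Conjugation enzymes were the list with the most genes at higher levels by an unadjusted p under 0.05. Of 41 tested members, 16 had higher and 3 lower levels at an unadjusted p under 0.05, where 3.5% and 2.82% of all genes tested did. The groups did not overlap in 19 members with higher and 5 with lower levels, against 6.86% and 6.13% of all genes. The median log2 fold change was 0.17. None passed the adjustment over all genes. Acsm3 (chromosome 7, 119760923 to 119787513), which encodes a medium-chain acyl-CoA synthetase, was at 1.41, 2.46 and 1.11 FPKM in sham females and 6.59, 7.38 and 7.56 FPKM after ovariectomy (1.65, limma adjusted p = 0.0620). Its mean was 4.32-fold higher, and the male libraries held 38.9, 62.78 and 38.66 FPKM, above both female groups.

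Ugt1a10 (chromosome 1, 88055388 to 88219004), a glucuronosyltransferase gene, was at 14.38, 25.53 and 9.16 FPKM in sham females and 90.39, 84.23 and 80.20 FPKM after ovariectomy (2.42, limma adjusted p = 0.0620). The means differed 5.19-fold, and males held 5.62 ± 2.21 FPKM, below every female library. Ugt1a transcripts differ in their first exon alone, so the division of reads among these genes is an estimate. Its neighbours Ugt1a7c, at 145 ± 17.3 and 200.1 ± 9.78 FPKM, and Ugt1a1, at 14.6 ± 1.10 and 21.0 ± 3.50 FPKM, had smaller differences. Ugt1a2, the most abundant member in females, was at 1063.12, 1161.36 and 1028.05 FPKM in sham females and 1222.38, 1374.08 and 1320.77 FPKM after ovariectomy (0.27, adjusted p = 0.801). Those groups did not overlap, and both were far above the 3.77 ± 0.933 FPKM of males.

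Glutathione transferase genes made up much of the conjugation list. Gsta3 was at 123.15, 138.74 and 107.77 FPKM in sham females and 180.97, 186.99 and 178.16 FPKM after ovariectomy (0.57, limma adjusted p = 0.0726). Gsta4 was at 180 ± 20.3 and 264 ± 15.5 FPKM (0.56, adjusted p = 0.128), Mgst1, a membrane-bound relative, at 131 ± 15.2 and 188 ± 10.7 FPKM (0.52, adjusted p = 0.0965), and Gstt1, named after its values were seen, at 110 ± 8.20 and 142 ± 8.05 FPKM. All 4 had libraries that did not overlap. Alpha-class and mu-class copies are similar in sequence, so reads may be shared among them. Among the 3 members towards lower levels were the UDP-glycosyltransferase genes Ugt2b38, at 103.8 ± 18 and 66.0 ± 17.2 FPKM, and Ugt3a1, at 87.1 ± 5.74 and 59.6 ± 6.67 FPKM.

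**Figure D3:**
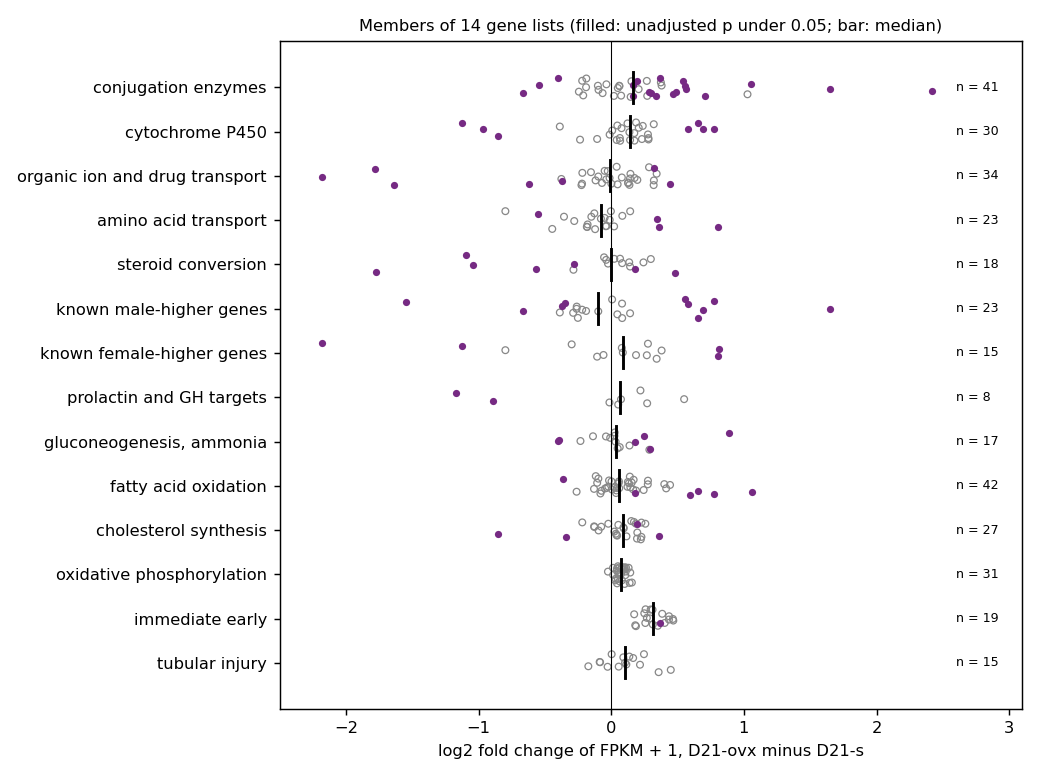
Log2 fold change of FPKM + 1 (D21-ovx minus D21-s, x axis) of every tested member of 14 gene lists (y axis, number of tested members at the right); filled points have an unadjusted limma p under 0.05 and bars are list medians. Conjugation enzymes hold 19 filled points, 16 of them to the right of 0, while the 19 immediate early genes all lie to the right with 1 filled.

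Genes of steroid conversion went both ways. Of 18 tested members 2 had higher and 5 lower levels at an unadjusted p under 0.05 (3.5% and 2.82% of all genes), with a median of 0.00. Akr1c18, whose product inactivates progesterone by reduction, was at 5.55, 1.39 and 2.86 FPKM in sham females and 0.46, 0 and 0.04 FPKM after ovariectomy (-1.77). It passed the filter only through the sham libraries, and without it the list's counts were 2 and 4 of 17. Ovariectomized and male libraries were thus both near 0, the males at 0.0400 FPKM. Hsd3b2, a hydroxysteroid dehydrogenase gene, was at 33.73, 40.21 and 43.75 FPKM and 25.61, 26.10 and 26.12 FPKM (-0.57, limma adjusted p = 0.319), against 76.4 ± 15.7 FPKM in males. Among the Akr1c genes next to Akr1c18 on chromosome 13, chosen after their values were seen, Akr1c14 was also lower, at 2.39 ± 1.11 and 0.640 ± 0.485 FPKM, and Akr1c20 was at 2.58 ± 0.472 and 1.93 ± 0.178 FPKM (-0.28) with libraries that overlapped. Akr1c13, Akr1c12 and Akr1c19 were at higher levels. Akr1c13 was at 10.43, 11.80 and 10.49 FPKM in sham females and 15.87, 16.38 and 18.92 FPKM after ovariectomy (0.60, adjusted p = 0.0645), and Akr1c21, the most abundant of them, was at 835 ± 40.5 and 884 ± 8.18 FPKM (0.08).

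Serpina1a and Serpina1d, a pair of serine protease inhibitor genes, had higher levels after ovariectomy. Serpina1a (chromosome 12, 103853589 to 103863562), of the antitrypsin type that is best known from liver, was at 6.60, 11.92 and 5.75 FPKM in sham females and 34.58, 20.13 and 26.13 FPKM after ovariectomy (1.65, limma adjusted p = 0.0834). Serpina1d (chromosome 12, 103763594 to 103773592) was at 0.84, 1.44 and 1.13 FPKM and 8.45, 4.21 and 4.37 FPKM (1.6, adjusted p = 0.0620). The groups did not overlap in either gene, and males held 0.233 and 0.247 FPKM. These copies are nearly identical in sequence, so one gene's reads may be counted to the other. Serpina1f, a less similar member named after its values were seen, was at 11.3 ± 4.11 and 8.96 ± 2.90 FPKM (-0.30), with overlapping libraries. In the complement and acute phase list, which holds Serpina1a, 2 of 16 members had higher and 0 lower levels at an unadjusted p under 0.05 (3.5% and 2.82% of all genes), the other being the complement factor B gene Cfb, at 277.5 ± 19.6 and 323 ± 20.4 FPKM.

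**Figure D4:**
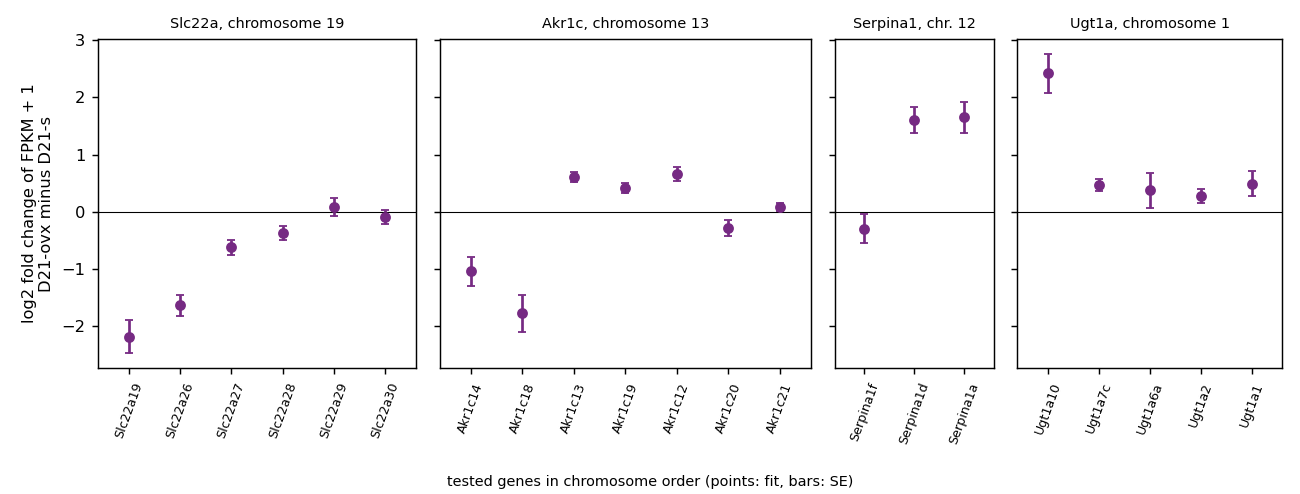
Log2 fold change of FPKM + 1 (D21-ovx minus D21-s, y axis; bars are standard errors of the limma fit) of the tested genes of 4 gene clusters in chromosome order. Slc22a19 and Slc22a26 lie below -1.6 with Slc22a29 and Slc22a30 near 0, Akr1c14 and Akr1c18 lie at or below -1.04 and Akr1c20 at -0.28 beside 4 Akr1c genes above 0, and Ugt1a10 stands at 2.42 above the other Ugt1a genes.

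Among the other genes towards higher levels were enzymes of methyl, pyrimidine and amino acid handling. Bhmt, whose product remethylates homocysteine with betaine, was at 13.67, 15.21 and 14.81 FPKM in sham females and 25.71, 23.76 and 30.38 FPKM after ovariectomy (0.82, limma adjusted p = 0.0620). Dpys, which encodes dihydropyrimidinase of pyrimidine breakdown, was at 10.61, 15.49 and 7.72 FPKM and 29.97, 29.57 and 24.46 FPKM (1.28, adjusted p = 0.0744). Slc38a3, a glutamine transporter gene of the basolateral membrane, was at 11.77, 17.59 and 14.22 FPKM and 27.13, 26.47 and 23.86 FPKM (0.80, adjusted p = 0.0822). All 3 were at least 1.78-fold higher in mean after ovariectomy, and all 3 were near 1 FPKM in males, at 0.520 ± 0.131, 1.26 ± 0.0929 and 1.42 ± 0.0306. The secreted proteins chemerin (Rarres2) and mannose-binding lectin A (Mbl1) had higher levels too. Rarres2 was at 15.90, 17.89 and 10.06 FPKM in sham females and 52.07, 52.24 and 44.31 FPKM after ovariectomy (1.73, adjusted p = 0.0620), and Mbl1 at 1.83 ± 0.05 and 5.32 ± 0.368 FPKM (1.16, adjusted p = 0.0744). Reep6, which encodes a membrane-shaping protein of the endoplasmic reticulum, was at 12.2 ± 2.08 and 21.8 ± 1.56 FPKM (0.80, adjusted p = 0.0726).

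Among the other genes towards lower levels, Ftl1, the ferritin light chain gene that serves iron storage, was the most abundant. It was at 3566.83, 3675.30 and 3603.94 FPKM in sham females and 2637.40, 2665.25 and 2714.57 FPKM after ovariectomy (-0.44, limma adjusted p = 0.0620), a 1.35-fold difference in mean with little spread. Of 18 tested genes of iron and ferroptosis, 0 had higher and 3 lower levels at an unadjusted p under 0.05 (3.5% and 2.82% of all genes), and the iron exporter gene Slc40a1 was at 30.27 ± 3.05 and 22.03 ± 3.43 FPKM. Ftl1 has many processed pseudogenes, so its reads may be divided. Tst and Mpst, neighbouring genes of mitochondrial and cytosolic sulfur transferases on chromosome 15 (78399556 to 78405907 and 78406416 to 78414013), were both lower. Tst was at 73.63, 79.34 and 78.26 FPKM and 42.90, 42.00 and 43.89 FPKM (-0.83, adjusted p = 0.0620), and Mpst at 58.46, 60.57 and 57.71 FPKM and 43.11, 41.48 and 41.72 FPKM (-0.47, adjusted p = 0.0645). Their groups did not overlap. The pair lies on opposite strands, the library kit keeps strand, and whether the counting used it is not given in the sources used here.

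Hdc, the histidine decarboxylase gene that makes histamine, had the log2 fold change of largest absolute size among the 24 genes. It was at 29.88, 5.99 and 34.32 FPKM in sham females and 1.16, 1.42 and 1.95 FPKM after ovariectomy (-2.98, limma adjusted p = 0.107). Sham library 2 stood apart from the other 2, and without it the adjusted p was 0.000176, in a range over the settings tried of 0.000176 to 0.395. Males held 1.14 ± 0.246 FPKM, the level of the ovariectomized females. Smaller differences were seen for Plod2, a collagen lysyl hydroxylase gene, at 10.97 ± 0.765 and 6.82 ± 0.572 FPKM (-0.61, adjusted p = 0.0620), and for Gjb2, the connexin 26 gene, at 52.6 ± 4.53 and 36.6 ± 2.97 FPKM (-0.51, adjusted p = 0.0922). Ttr, the thyroxine and retinol carrier transthyretin, was at 40.5 ± 7.66 and 20.8 ± 0.934 FPKM (-0.91, adjusted p = 0.107) and at 104 ± 19.5 FPKM in males. Fgl1, a fibrinogen-like secreted protein gene, was at 2.92 ± 0.219 and 1.27 ± 0.182 FPKM, and Plbd1, a lysosomal phospholipase B-like gene, at 11.1 ± 0.0721 and 7.69 ± 0.270 FPKM.

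None of the tested receptor genes for ovarian and pituitary hormones described here passed the test. Esr1, the estrogen receptor alpha gene, was at 1.01, 1.02 and 0.71 FPKM in sham females and 1.61, 1.25 and 0.96 FPKM after ovariectomy (0.24, limma adjusted p = 0.930), with overlapping libraries near the filter of 1 FPKM. The progesterone receptor gene Pgr was under 1 FPKM in every library and not tested. Prlr, the prolactin receptor gene, was at 75.5 ± 5.86 and 70.6 ± 11.6 FPKM (-0.11, adjusted p = 0.989) and at 0.917 ± 0.255 FPKM in males. Ghr, the growth hormone receptor gene, was at 112.98, 104.77 and 107.47 FPKM and 92.01, 86.66 and 82.86 FPKM (-0.31, adjusted p = 0.179). Those groups did not overlap, and the males were at 87.1 ± 3.12 FPKM, the level of the ovariectomized females. Among 8 tested genes of prolactin and growth hormone signalling through STAT5, 0 had higher and 2 lower levels at an unadjusted p under 0.05 (3.5% and 2.82% of all genes). The 2 were Socs2, at 9.35 ± 3.28 and 3.46 ± 0.583 FPKM, and Cish, at 20.5 ± 10.1 and 9.80 ± 0.376 FPKM, both feedback inhibitors of these receptors. Log2 fold changes were positive in 5 of the 8 members, with a median of 0.06. Igf1r, the insulin-like growth factor receptor gene, was at 22.3 ± 3.21 and 24.4 ± 3.48 FPKM (0.12, adjusted p = 0.976).

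Kap, the kidney androgen-regulated protein gene, is one of the most abundant male-higher transcripts of the tubule. It was at 2194.13, 1222.42 and 1810.70 FPKM in sham females and 838.38, 624.06 and 372.87 FPKM after ovariectomy (-1.54, limma unadjusted p = 0.000859, adjusted p = 0.203), and at 8719 ± 2297 FPKM in males. Its female groups did not overlap. Of 23 tested genes known as higher in male mouse kidney, 6 had higher and 4 lower levels at an unadjusted p under 0.05, and of 15 known as higher in females 2 had higher and 2 lower levels, where 3.5% and 2.82% of all genes did. In the present libraries 4 of the 23, Akr1c21, Cyp2j5, Gsta4 and Slc5a8, had male means below both female groups, and 1 of the 15, Cyp2a4, had a male mean above them, so these memberships go against the lists' names. Cyp2a4, a steroid hydroxylase gene, was at 14.27, 8.58 and 11.12 FPKM in sham females and 5.85, 5.39 and 2.88 FPKM after ovariectomy (-1.13, adjusted p = 0.236). The related gene Cyp2a5 had the opposite sex direction, with means of 140 FPKM in sham females, 70.1 FPKM after ovariectomy and 54.4 FPKM in males. Its female libraries overlapped. Reads may be shared between Cyp2a4 and Cyp2a5, which was not tested, so the higher male level of Cyp2a4 is uncertain. The panel's other sex-biased genes had smaller differences. Cyp4b1, Cyp4a14 and Slc7a12 had overlapping female libraries, at 111 ± 22.9 and 84.8 ± 19.7, 357 ± 22.8 and 435 ± 63.4, and 8.53 ± 4.22 and 4.62 ± 2.92 FPKM. The male-high genes Cyp2j13, Slc7a13 and Slco1a1 were all at or under 0.45 FPKM in every female library, against at least 14.08 FPKM in males, and were not tested.

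Lists of energy metabolism and of other proximal tubule functions are given with their counts at an unadjusted p under 0.05, beside 3.5% of all genes with higher and 2.82% with lower levels. In gluconeogenesis and ammonia handling 4 of 17 members had higher and 2 lower levels. G6pc, the gene of the last step of glucose release, named after its values were seen, was at 259 ± 21.5 and 480 ± 34.1 FPKM (0.89, limma adjusted p = 0.547) with libraries that did not overlap, and Pck1, the gene of the rate-setting step, was at 2489 ± 231 and 2741 ± 288 FPKM (0.14, adjusted p = 0.951). Gpt2, an alanine transaminase gene, was at 46.9 ± 2.49 and 35.4 ± 3.62 FPKM (-0.40, adjusted p = 0.193), and Khk, the fructokinase gene, at 521.5 ± 10.7 and 619 ± 29.7 FPKM (0.25, adjusted p = 0.252). Of 27 cholesterol synthesis genes 2 had higher and 2 lower levels. Log2 fold changes were positive in 19 of the 27, with a median of 0.09. The sterol demethylase gene Cyp51 went the other way, at 50.02 ± 6.93 and 27.2 ± 4.52 FPKM (-0.86, limma adjusted p = 0.212). Fatty acid oxidation had 5 higher and 1 lower among 42, NRF2 targets 4 and 1 among 19, and amino acid transport 3 and 1 among 23. Glucose, ion and water transport had 0 and 2 among 30, among them Slc9a3, the apical sodium-proton exchanger gene, at 41.4 ± 3.09 and 34.2 ± 0.566 FPKM (-0.27, adjusted p = 0.547). The vitamin D enzyme genes Cyp27b1 and Cyp24a1 varied more within the groups than between them, at 6.84 ± 6.08 and 5.08 ± 3.30 FPKM and at 47.3 ± 10.96 and 46.2 ± 4.11 FPKM.

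In some other lists most members had the same sign. Nuclear oxidative phosphorylation genes had positive log2 fold changes in 30 of 31 members with a median of 0.07, groups that did not overlap in 10 members (6.86% of all genes had higher levels without overlap), and 0 members at an unadjusted p under 0.05. Immediate early genes were positive in 19 of 19 members with a median of 0.31, and 1, Egr2, was at an unadjusted p under 0.05. Their summed level was 857 to 1297 FPKM in D21-s and 1263 to 1451 FPKM in D21-ovx. These genes are induced quickly by many stimuli, tissue dissociation among them, and the part of that in their levels was not tested. Endocytosis genes were negative in 13 of 14 members with a median of -0.09, with Dab2, a megalin adaptor gene, at 250.1 ± 20.2 and 212 ± 9.05 FPKM (-0.23, limma adjusted p = 0.790). Cell cycle genes had 0 higher and 3 lower at an unadjusted p under 0.05 among 14 tested (3.5% and 2.82% of all genes), namely Cdk1, Ccnd1 and Mcm6. Cdk1 passed the filter only through the sham libraries, and without it the counts were 0 and 2 of 13. Ccnd1, the cyclin D1 gene, was at 64.5 ± 7.39 and 44.9 ± 7.46 FPKM. Tubular injury genes had 0 of 15 members at an unadjusted p under 0.05, and the injury markers Havcr1 and Lcn2 stayed at or under 0.66 FPKM in all female libraries and were not tested.

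The fraction held the markers of its label. Early proximal tubule markers summed to 5517 to 6805 FPKM in D21-s and 5666 to 6328 FPKM in D21-ovx, and Prom1, which encodes the prominin-1 that was selected for, was at 90.43, 76.84 and 128.66 FPKM in D21-s and 68.51, 76.14 and 78.52 FPKM in D21-ovx (-0.37, limma adjusted p = 0.827). Late segment markers summed to 1428 to 1703 FPKM in D21-s and 1711 to 2017 FPKM in D21-ovx, ranges that did not overlap. Of their 7 tested members 2 had higher and 3 lower levels at an unadjusted p under 0.05 (3.5% and 2.82% of all genes), with a median of -0.23. Slc27a2, a fatty acid transport and activation gene at 1420 ± 140 and 1706 ± 162 FPKM, made up most of the sum, and the late marker Slc7a13 was near 0 in all female libraries. Markers of other cells were present. Thick ascending limb markers summed to 1038 to 1678 and 1311 to 1784 FPKM, with positive log2 fold changes in 8 of 9, distal convoluted tubule markers to 302 to 611 and 413 to 632 FPKM, positive in 9 of 9, and podocyte markers to 50.9 to 320 and 90.5 to 269 FPKM, negative in 8 of 8. Of 13 lymphocyte and neutrophil markers 0 were tested, and their sum was 1.13 to 1.69 and 1.16 to 6.54 FPKM. The mean centred level of 65 markers of other cells was 0.11, -0.26 and -0.78 in the D21-s libraries and 0.23, -0.41 and -0.28 in the D21-ovx libraries, so the groups overlapped. With this score as a covariate 1 gene was called higher and 3 lower. The part of other cells in single results was not tested beyond this covariate.

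The table holds no counts, and the spacing of low FPKM values gave an estimated depth of 21.25 to 28.75 M (1e6) reads per female library. Between 12287 and 12742 genes per female library reached 1 FPKM. The first principal component of the 6 female libraries held 34.5% of the variance and did not separate the groups, with scores of -13.8, -4.83 and 26.4 for D21-s and -17.3, 3.17 and 6.37 for D21-ovx. Xist was at 36.3 ± 3.47 and 39.4 ± 3.25 FPKM and the Y-linked Ddx3y was listed at 0 in all 6, as the sex label says. Of the 12682 genes, 26 passed the filter only through D21-s and 16 only through D21-ovx. At the edge of the filter the third-highest value was 1 FPKM in 28 genes just inside and 0.99 FPKM in 18 just outside. Differences of 2-fold or more on the log2(FPKM + 1) scale were found in 28 genes towards higher and 29 towards lower levels, of which 17 and 21 had groups that did not overlap. An adjusted p under 0.10 was reached by 15 and 11 genes. In the same genes, filtered on female levels only, the sham females differed from the males in 1146 and the ovariectomized females in 1477. These counts share libraries with each other and with the comparison above. The mean centred level of markers of other cells was 0.29, 0.70 and 0.40 in the male libraries, above every female library. Its part in the differences from males was not tested.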

How the data were processed

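Gene expression was measured in 9 RNA-seq libraries, 3 per group, and 6 of them form the comparison. The authors deposited FPKM per gene and library with 2 decimals; per the submitters' processing notes the tools were STAR 2.6.0c and RSEM, and no source used here gives the genome build, annotation, strand setting or any scaling between libraries. RSEM divides reads among similar genes by estimate. FPKM are not counts, so values were transformed to log2(FPKM + 1), with a pseudocount of 1 that understates differences of low genes, and tested with limma 3.58.1 (R 4.3.3). All 9 libraries entered one model of group means with an empirical Bayes variance that followed the trend with level, so the males add to the estimate of spread only. Tests were two-sided, adjusted by Benjamini-Hochberg over 12682 genes, and called at an adjusted p under 0.05. The procedure was tested on simulated data, and as neither setting nor outcome is given here, no support is drawn from that. An exact permutation of 3 against 3 libraries cannot go below a two-sided p of 0.1, so none was used. P-values measure the spread between these libraries, since nothing in the labels beyond the word biological says how the animals were kept apart. No 2 libraries were identical.

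Replicate numbers are shared by the groups. The deviations of same-numbered D21-s and D21-ovx libraries correlated at 0.38, 0.19 and 0.31 over genes, and those of differently numbered libraries at -0.35 to 0.06. Deviations were taken from each group's mean and cancel within a group. Positive values for same numbers thus force lower ones for different numbers, and the contrast is partly fixed by construction. The numbers were treated as pairing the female libraries in alternative fits with a replicate block. In the fit of 9 libraries the block also tied the male libraries to the same numbers. Correlations of male with female libraries were not examined. The pairing of the females comes from the data, and the labels do not state it. The main fit has no block, so its p-values take no account of that pairing.

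Named genes are the 12 with the smallest p per direction with non-overlapping libraries, a mean of 2 FPKM or more on the higher side and no predicted-gene symbol, since fewer than 5 genes were called per direction; up to 2 members per list with an unadjusted p under 0.05; and a panel of hormone receptors and sex-linked or sorted-cell genes. In all 50 lists were used. Some genes that the rule or the lists name are not reported here. The genes, lists and rules were chosen with earlier results of these data known. Of the 52405 Ensembl IDs, 52093 matched GENCODE M21 (GRCm38), which gave positions; promoters are from RefSeq (GRCm38.p6), and bases inside the GENCODE gene were left out for Pllp. In 4 unnamed side columns the table holds the authors' working values, which were not used. Depth was estimated by a grid search over reads per library, with 54.81% to 57.76% of low values on whole-read steps; these are estimates, so no counting intervals were computed. Alternatives were the female libraries alone, other pseudocounts, filters, scalings and variance models, a marker covariate, a replicate block and each library left out; the female libraries with a block were added after seeing the data. Figures were made in matplotlib 3.10.9 under Python 3.11.15, with pandas 2.3.3 and numpy 2.4.6.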

Additional observations from a re-analysis of the deposited data

How the results depend on the processing

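The number of called genes was small under every setting tried and depended on the setting. Against 0 higher and 1 lower as reported, the female libraries alone gave 7 higher and 6 lower, a pseudocount of 5 gave 11 and 10, and no filter on low values gave 1 and 1 (Gm6614 and Mir681). Median-ratio scaling gave 2 lower and quantile normalization 0 lower (771 genes at an unadjusted p under 0.05), a constant prior variance 4 lower, robust empirical Bayes 4 lower, and the marker covariate 1 higher and 3 lower. The replicate block gave 0 lower (905 genes at an unadjusted p under 0.05), and the female libraries with a replicate block gave 3 higher and 3 lower. Leaving out 1 library gave 0 to 7 higher and 0 to 5 lower. Without D21-s library 2 there were 7 higher and 4 lower, and without male library 1 there were 3 and 5. Why the counts moved was not tested; fits without a female library also have fewer libraries in a group.

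The log2 fold change of Pllp stayed negative throughout, at -1.23 with an adjusted p of 0.0716 without a filter, -1.22 with 0.0557 under quantile normalization and -1.23 with 0.0526 with the replicate block, and it ranged from -1.26 to -1.18 over the fits that left out a library. Pllp was the only call the block could remove in the fit of 9 libraries, and the block added none there. In the fit of the female libraries the block kept 6 of 13 calls and lost 7, those of Acsm3, Gstp2, Igfals, Mbl1, Mpst, Slc22a26 and Wfdc16. Among the named genes, signs reversed only in genes far from the threshold. With the marker covariate Cyp27b1 was at 0.033 and Cyp24a1 at 0.00345. With 1 library left out Cyp27b1 ranged from -0.65 to 0.36, Cyp24a1 from -0.16 to 0.16 and Prlr from -0.19 to 0.036. Depth limits genes near 1 FPKM, where values near 0 in 1 group cannot be told from absence.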

Other observations

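Fitted on the 6 female libraries alone, 13 genes passed limma's adjusted p under 0.05, and 5 of them are named here after their values were seen. With the replicate numbers as a block that fit kept 6 of the 13, among them Apoe and G6pc but not Gstp2, Wfdc16 or Igfals. Apoe, the apolipoprotein E gene of lipid transport, was at 772.96, 851.00 and 823.35 FPKM in sham females and 1441.60, 1426.02 and 1565.85 FPKM after ovariectomy (0.86, adjusted p = 0.00673 in that fit and 0.325 in the fit of 9 libraries). The groups lay far apart, and the male libraries ranged from 260.80 to 534.00 FPKM. G6pc, the glucose-6-phosphatase gene that releases glucose, was at 238.42, 256.33 and 281.26 FPKM and 453.05, 467.81 and 518.01 FPKM (0.89, adjusted p = 0.0225 in the female fit and 0.547 in the fit of 9 libraries), with males from 125.79 to 331.87 FPKM. Gstp2, a glutathione transferase gene, was at 12.8 ± 1.52 and 27.1 ± 1.87 FPKM (adjusted p = 0.0283 and 0.822), with males from 6.88 to 44.76 FPKM. In these 3 genes the males varied more than either female group. Wfdc16, a gene of the whey acidic protein family, was at 21.0 ± 1.22 and 34.0 ± 1.30 FPKM (adjusted p = 0.0356 and 0.314), and Igfals, which encodes the acid-labile subunit of the circulating IGF complex, was at 14.7 ± 0.618 and 8.27 ± 0.712 FPKM (adjusted p = 0.0476 and 0.193).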
